A study of Mus musculus with 54 samples.

Results

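Clustered zinc finger genes were taken as the autosomal protein-coding mouse genes whose symbol is Zfp plus a number and that have at least 3 other such genes with a midpoint within 500 kb in the mm10 annotation. Of 360 autosomal protein-coding genes with such a symbol, 175 met this rule. Neighbouring members at most 500 kb apart were joined into 21 clusters, each named here by its first and last gene. Replication timing was given in 50 kb windows, and the midpoints of 141 of the 175 genes lay in a window with values. These genes filled 108 distinct windows in 20 clusters, out of 43941 autosomal windows. The cluster from Zfp980 to Zfp933 on chromosome 4 kept a value for only 1 of its 15 genes, Zfp981, and Zfp972 on chromosome 2 had none. A window was also lacking for 6 of the 20 genes from Zfp640 to Zfp273 on chromosome 13 and 5 of the 21 from Zfp160 to Zfp40 on chromosome 17.

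Most clustered Zfp genes encode KRAB zinc finger proteins, in which an array of zinc fingers binds DNA and the KRAB domain recruits the corepressor TRIM28 and, with it, the histone methyltransferase SETDB1. Many of these proteins silence retrotransposons, and the family has grown by tandem duplication, which left its genes in arrays of related copies. Replication timing is the point in S phase at which a region is copied, and early replication generally goes with open, gene-rich chromatin.

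The study compared replication timing of the parental alleles in cells of F1 crosses between mouse subspecies and strains. BrdU was given to mark newly copied DNA, flow cytometry separated an early and a late S fraction, and sequencing of the marked DNA of each gave 54 libraries, or 27 profiles with a value for each allele. Embryonic stem cells (ESCs) of cross 129 / cas were lines F121, F121-6 and F121-9, labelled female, and F123, labelled male, and line Cas129, labelled female, was of cross cas / 129. All were grown feeder-free in 2i medium, a serum-free medium with MEK and GSK3 inhibitors and LIF, and F121-6 and F121-9 also on inactivated feeder fibroblasts. Differentiation of F121-9 and Cas129 ESCs to neural precursor cells (NPCs) was sampled at day 11. Embryonic fibroblasts (MEFs) came from 4 embryos of cross cas / 129, of which the labels call 1 and 2 female and 3 and 4 male. Extraembryonic endoderm cells (XEN) were 1 female line of cross C57B6 / cas with 2 profiles, and V6.5 ESCs were 1 male line of cross C57B6 / 129 with 1 profile. There were 13 ESC profiles of 5 lines, 3 NPC profiles of 2 lines and 8 MEF profiles of 4 embryos in the 129 and Cas comparisons. Profiles of a line or embryo were averaged first, so that n is the number of lines or embryos, and XEN and V6.5 values are given without a test. The ESC, NPC and MEF groups were fitted together and share 1 estimate of the spread. With 2 NPC lines, the SE and p-values of NPC means rest mostly on the spread of the other groups. Leaving out embryos can therefore change an NPC call.

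A value is the log ratio of early to late signal, read as log2 because the base is not stated, and values above 0 mean earlier replication. Timing is the mean of both alleles, and the allelic difference is 129 minus Cas unless another pair is named. The values hold no read counts, so the depth behind them is unknown. Neighbouring windows were nearly alike: the median correlation between adjacent windows was 0.994 for timing and 0.914 for the allelic difference over the 27 profiles, so windows of a cluster are not separate observations. The ESC and NPC columns had autosomal means of -0.67 to -0.54 and the MEF and XEN columns of -0.22 to -0.10, so any timing difference between these sets includes that offset. The rank of a window among all autosomal windows of its own cell type is therefore also given, as a percentile with 100 for the earliest. The X chromosome tracks of 2 embryos went against their labels: the 129 X of embryo 1, labelled female, was flat (SD 0.255 and 0.301 in its 2 profiles), and both X tracks of embryo 3, labelled male, were patterned (SD 1.32 and 1.34 for 129). Both X tracks of V6.5 ESCs, labelled male, were patterned too. ESC marker genes were early in ESCs (median 2.03) and late in MEFs (-2.71), and MEF markers were earliest in MEFs (2.99). XEN markers had close medians of 2.31 in XEN cells and 2.10 in MEFs. Of these, Cubn, Sparc and Gata4 were earlier in MEFs, and Sox17, Sox7 and Gata6 in XEN cells. NPC markers had medians of 1.29 in NPCs, 0.86 in MEFs and 0.57 in ESCs.

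Promoters of 4 members are shown first, because these genes mark the extremes of the timing results. Zfp976 and Zfp977 had the largest shift to late replication on chromosome 7, Zfp712 the largest on chromosome 13, and Zfp146 stayed early in every cell type. Each line is the 250 bases upstream of the gene's most upstream listed start, on the gene's strand, from RefSeq GRCm38.p6. A listed start can lie inside the annotated span of a gene. The stretch shown for Zfp976 lies within the span of that gene, and the stretch for Zfp146 overlaps the annotated end of its cluster. CG dinucleotides are in capitals.
Zfp976: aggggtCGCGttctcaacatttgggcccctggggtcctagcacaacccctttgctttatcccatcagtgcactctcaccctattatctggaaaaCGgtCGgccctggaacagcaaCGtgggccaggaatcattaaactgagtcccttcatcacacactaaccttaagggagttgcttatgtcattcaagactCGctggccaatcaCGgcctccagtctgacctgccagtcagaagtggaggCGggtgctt
Zfp977: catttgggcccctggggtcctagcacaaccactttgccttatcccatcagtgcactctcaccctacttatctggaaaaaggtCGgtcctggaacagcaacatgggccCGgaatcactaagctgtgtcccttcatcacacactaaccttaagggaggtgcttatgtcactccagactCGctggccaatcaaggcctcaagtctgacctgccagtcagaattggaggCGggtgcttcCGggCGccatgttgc
Zfp712: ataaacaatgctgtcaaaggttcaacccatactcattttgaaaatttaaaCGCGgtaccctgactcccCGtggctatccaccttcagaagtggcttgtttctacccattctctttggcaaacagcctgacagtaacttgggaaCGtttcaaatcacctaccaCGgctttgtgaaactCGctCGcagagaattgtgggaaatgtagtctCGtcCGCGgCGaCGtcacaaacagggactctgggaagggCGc
Zfp146: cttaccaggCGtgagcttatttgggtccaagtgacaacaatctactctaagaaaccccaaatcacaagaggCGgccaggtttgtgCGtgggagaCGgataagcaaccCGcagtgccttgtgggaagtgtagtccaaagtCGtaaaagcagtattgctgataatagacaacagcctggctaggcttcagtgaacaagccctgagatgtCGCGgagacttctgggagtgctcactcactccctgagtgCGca
The windows are chr7:42642605-42642854 for Zfp976, chr7:42592546-42592795 for Zfp977, chr13:67061171-67061420 for Zfp712 and chr7:30169742-30169991 for Zfp146, all on the minus strand. The Zfp976 and Zfp977 promoters matched at 71.2% of bases without gaps, allowing a shift of up to 30 bases, and the closest pair in that cluster was Zfp977 and Zfp936 at 90.0%. A promoter was listed for 158 of the 175 members and for 16457 of 20665 autosomal protein-coding genes. At least 1 CG, a motif that reads the same on both strands, was found in 99.4% of member promoters and in 93.0% of all. The median number of CG was 8.5 in members and 10.0 in all genes, and 32.3% of member promoters against 42.9% of all were rich in CpG by a GC content over 50% and an observed to expected CG ratio over 0.6. Clusters differed in this share. It was 1 of 18 promoters from Zfp640 to Zfp273, 0 of 9 from Zfp871 to Zfp101, 1 of 9 from Zfp141 to Zfp819 and 1 of 12 from Zfp980 to Zfp933, but 5 of 6 from Zfp787 to Zfp28, 4 of 5 from Zfp60 to Zfp850 and 6 of 8 from Zfp786 to Zfp467.

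Clustered Zfp genes replicated early in ESCs and XEN cells and were spread from early to late in NPCs and MEFs. Over the 141 genes with a window the median timing was 2.55 in ESCs, 0.50 in NPCs, 0.79 in MEFs and 2.22 in XEN cells, which are percentiles 88.5, 62.8, 59.4 and 75.8 of the windows of each cell type. Timing was above 0 for 135 of the 141 genes in ESCs, 126 in XEN cells, 82 in MEFs and 79 in NPCs. The 155 other autosomal Zfp genes with a window had medians of 2.21, 1.85, 2.18 and 2.37 in ESCs, NPCs, MEFs and XEN cells, and all 18217 autosomal protein-coding genes had 2.02, 1.85, 2.12 and 2.22. The median of clustered members was above both lists in ESCs and below both in NPCs and MEFs. At the edge of the rule, the 15 members with a window and exactly 3 neighbours had medians of 1.46 in ESCs, -1.95 in NPCs and -2.02 in MEFs, and the 37 Zfp genes with 2 neighbours, which fell outside it, had 2.42, 1.80 and 2.20. Clustered Olfr genes, an array family of odorant receptors, were late in every cell type, with medians of -1.76 in ESCs, -3.21 in NPCs, -2.65 in MEFs and -1.30 in XEN cells. Clustered Vmn genes, an array family of pheromone receptors, had medians of -2.04, -2.98, -2.51 and -1.60 in the same cell types.

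**Figure D1:**
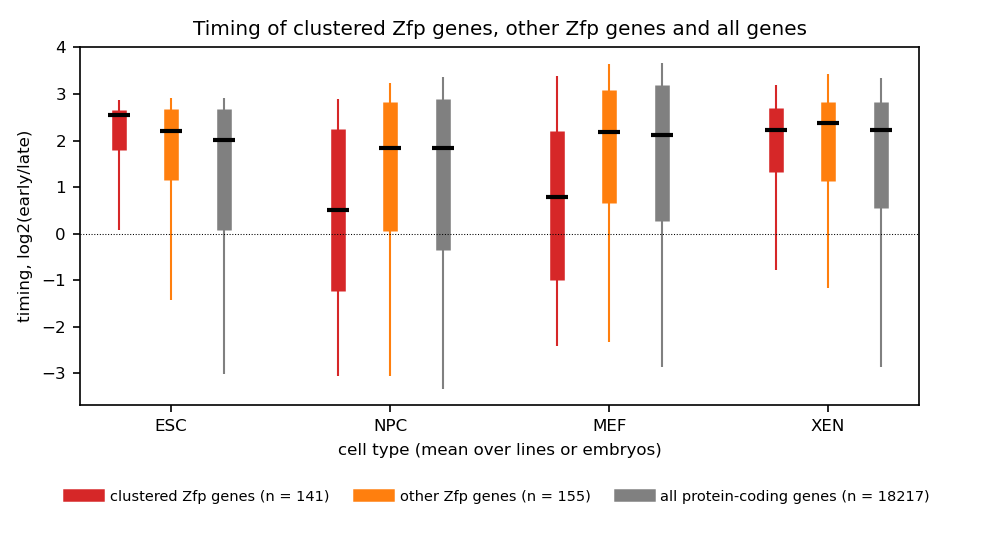
Timing (vertical axis, log2 of early over late) of clustered Zfp genes, other Zfp genes and all protein-coding genes in each cell type. Thick bars span the 25th to 75th percentiles of the genes, thin lines the 5th to 95th percentiles, and black dashes are medians; the median of clustered Zfp genes is 2.55 in ESCs and 0.50 in NPCs, while that of all genes is 2.02 and 1.85.

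In the test of NPCs against ESCs, 65 of the 108 member windows passed (limma, adjusted p below 0.05 and a size of at least 1), against 32.5% of all windows. Of these 65, 64 were later in NPCs and 1 was earlier, against 16.1% and 16.4% of all windows. The median difference was -1.72 in member windows and 0.03 in all windows. In MEFs against ESCs, 57 member windows passed, against 44.0% of all windows, with 56 later (13.7% of all windows) and 1 earlier (30.3% of all windows), and the median difference was -1.13 in members and 0.38 in all. Both comparisons share the ESC profiles, and the NPC lines were not paired with their own parent ESC lines. Without embryos 1 and 3, 58 member windows passed in MEFs against ESCs, all of them later. The offset between the column sets affects the second comparison: with each column centred on its autosomal median, 80 member windows were later and 0 earlier in MEFs, and all windows then split into 8167 earlier and 12491 later, from 13311 and 6030 as deposited. The NPC counts were again 64 later and 1 earlier with that centring. By genes, 78 of the 141 clustered Zfp genes were later in NPCs than in ESCs (55.3%) and 1 was earlier, with a median difference of -1.59. The array families of receptors, late already in ESCs, also had many genes later in NPCs: 385 of 801 clustered Olfr genes (48.1%, median -0.95) and 100 of 201 clustered Vmn genes (49.8%, median -0.98), with 4 and 1 earlier. Of all protein-coding genes, 16.0% were later and 7.77% earlier. Clustered Zfp genes had an ESC median of 2.55, against -0.68 in all windows, which leaves less room for an earlier call. Windows of like ESC timing were not compared. In MEFs 70 clustered Zfp genes (49.6%), 291 Olfr genes (36.3%) and 61 Vmn genes (30.3%) were later than in ESCs, and the differences between families were not tested.

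The fall was concentrated in some clusters. All 13 ESC profiles lay above all 3 NPC profiles in 11 of the 20 clusters, and the ESC and MEF profiles did not overlap in 14 of 20, in 13 of which ESCs were the earlier. In 6 clusters the NPC and MEF profiles did not overlap. By the calls above, 32.5% of all windows passed in NPCs against ESCs and 44.0% in MEFs against ESCs, and 33.3% passed in MEFs against NPCs. Counted by single windows, all ESC profiles were above all NPC profiles at 63 of the 108 member windows, against 15.5% of all windows. All ESC profiles were above all MEF profiles at 60 member windows, against 14.5% of all. NPC and MEF profiles did not overlap at 41 member windows, or 38.0%, a smaller share than the 55.0% of all windows.

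**Figure D2:**
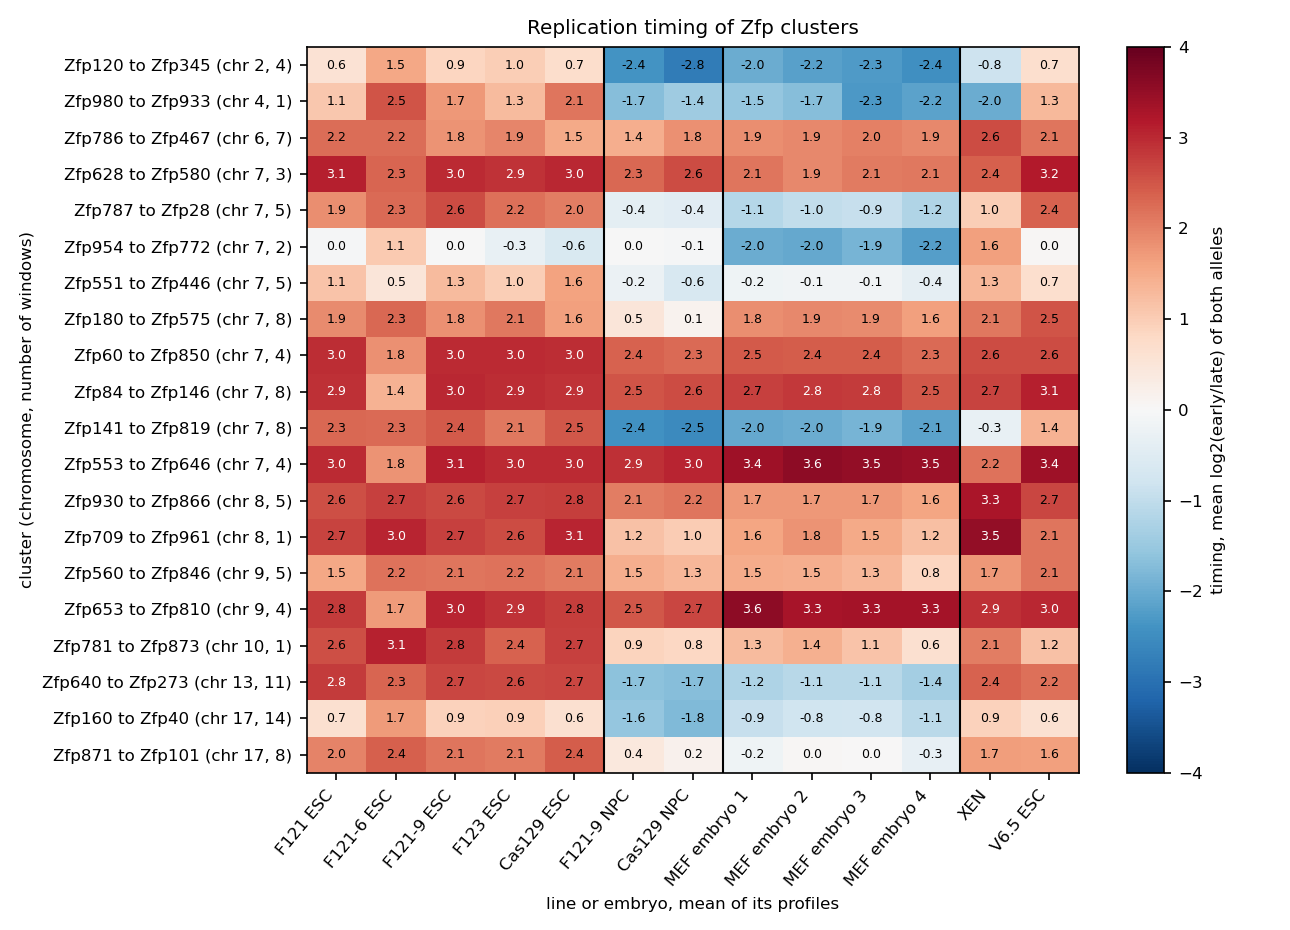
Timing of each of the 20 clusters (rows, with chromosome and number of windows) in each line or embryo (columns, separated by cell type), as the mean of its profiles and windows on a log2 scale from late (blue) to early (red). Clusters such as Zfp141 to Zfp819 go from 2.33 in ESCs to -2.48 in NPCs, while Zfp84 to Zfp146 stays between 2.48 and 3.01 in the NPC and MEF columns and in the ESC lines of 129 and Cas other than F121-6, which is at 1.38.

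The largest shift was in the cluster from Zfp141 to Zfp819 on chromosome 7, of 9 genes and 8 windows over 1123 kb. Its timing in the 13 ESC profiles ran from 2.08 to 2.67 with a median of 2.30, its 3 NPC profiles had -3.07, -2.42 and -2.01, and its 8 MEF profiles ran from -2.17 to -1.63 with a median of -2.03. The 2 XEN profiles, at -0.46 and -0.13, lay between the ESC profiles and the others, and no profile of ESCs overlapped one of another of these cell types. The V6.5 ESC profile, at 1.38, lay below the 13 ESC profiles and above the XEN profiles. The cluster mean was at percentile 85.2 in ESCs, 27.9 in NPCs, 27.8 in MEFs and 46.8 in XEN cells. All 8 windows passed in both comparisons.

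Zfp976 (chr7:42609514-42644267, a window at 42600001-42650000) had 2.12, 2.24, 2.33, 2.00 and 2.29 in ESC line F121, its relatives F121-6 and F121-9, and lines F123 and Cas129, the order used below. It had -3.13 and -3.34 in F121-9 and Cas129 NPCs and -4.09, -3.91, -3.80 and -4.32 in embryos 1 to 4. Every ESC line was early and every NPC line and embryo late, with a difference of -5.43 (SE 0.19, adjusted p = 6.37e-11) for NPCs and -6.22 (SE 0.16, adjusted p = 2.8e-13) for MEFs. Its neighbour Zfp977 differed by -5.78 (SE 0.21) and -6.11 (SE 0.17). Timing in MEFs varied along the cluster. The 4 genes at its start, Zfp141, Zfp977, Zfp976 and Zfp975, were between -4.09 and -3.51 in MEFs, Zfp936 was at -1.21, and Zfp715, Zfp658, Zfp719 and Zfp819 at the far end were between 0.10 and 0.43. In NPCs the same far end was later, with Zfp715 at -2.08 and -2.33 in the 2 lines against 0.09, 0.15, 0.24 and -0.09 in the 4 embryos, a MEF minus NPC difference of 2.30 (SE 0.19, adjusted p = 8.7e-08). In ESCs the windows with a member had values from 1.88 to 2.69. The means of the 500 kb on its left also differed from ESCs, by -3.58 in NPCs and -3.68 in MEFs, and those of the 500 kb on its right by -1.90 and -2.29.

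On chromosome 13 the cluster from Zfp640 to Zfp273, with 14 genes in 11 windows over 1145 kb, was early in ESCs and XEN cells and late in NPCs and MEFs. The ESC profiles ran from 1.55 to 3.10 with a median of 2.69, the NPC profiles had -2.56, -1.65 and -0.82, the MEF profiles ran from -1.37 to -1.02 with a median of -1.22, and the XEN profiles had 2.34 and 2.40. XEN profiles fell within the ESC range, and both stood apart from all NPC and MEF profiles. V6.5 ESCs, at 2.19, were within the ESC range too. As percentiles the cluster was at 90.4 in ESCs and 80.2 in XEN cells, against 38.8 in NPCs and 36.8 in MEFs. All 11 windows were later in NPCs and in MEFs than in ESCs. The cluster mean differed from ESCs by -4.29 in NPCs and -3.83 in MEFs, and its flanks were later too. The 2 windows within 500 kb on its left differed by -5.47 and -5.32, and the 5 on its right by -2.51 and -2.11.

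Zfp712, at the start of this cluster, had ESC line values from 2.65 to 2.91, NPC values of -2.39 and -2.45, and embryo values from -2.04 to -1.84. It differed by -5.21 in NPCs (SE 0.17, adjusted p = 5.04e-11) and -4.70 in MEFs (SE 0.14, adjusted p = 3.23e-13). Zfp708, whose protein binds a class of endogenous retroviral repeats, differed by -4.93 (SE 0.18) and -4.38 (SE 0.14). Zfp429 and Zfp456 share a window and differed by -4.08 (SE 0.26) and -3.62 (SE 0.21). In MEFs the middle of the cluster was the earliest, with Zfp87 and Zfp748 at -0.38 against -1.91 for Zfp712 and -1.50 for Zfp273 at the ends. Genes of this cluster had no window where Zfp458, Zfp457, Zfp459, Zfp65, Zfp85 and Zfp640 lie.

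**Figure D3:**
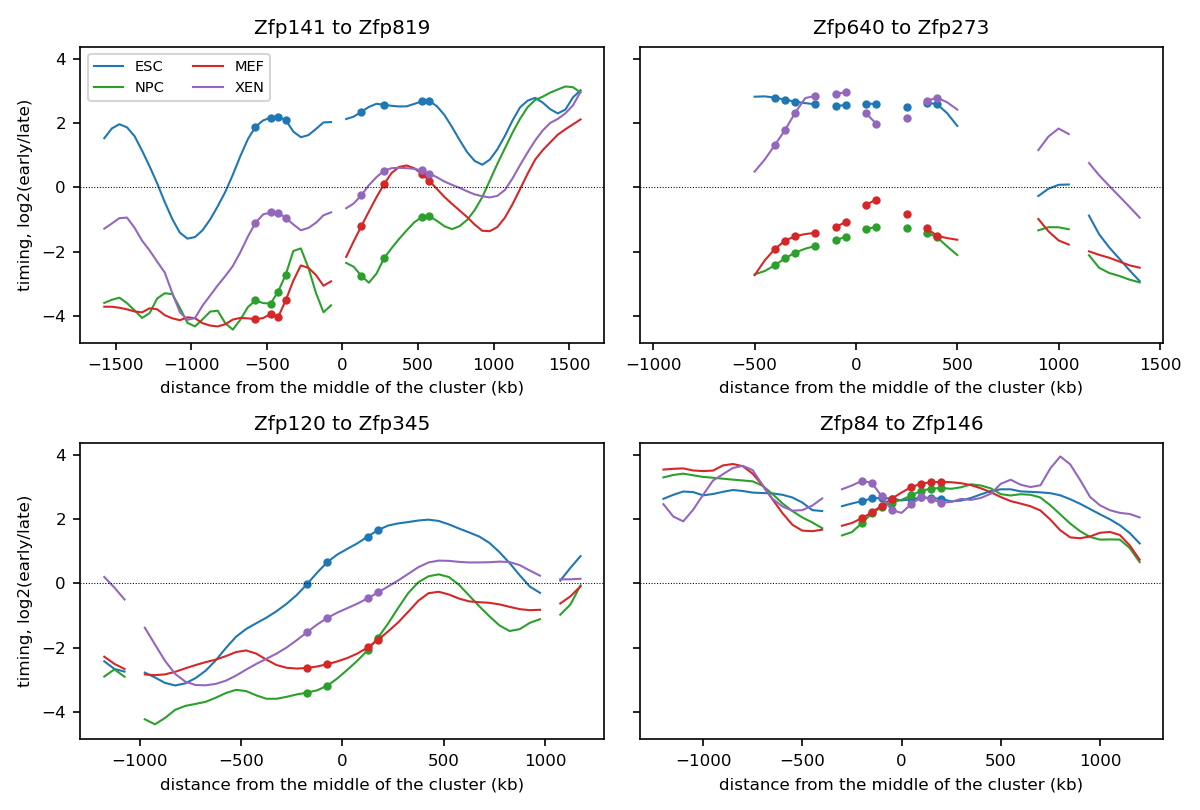
Timing (vertical axis, log2 of early over late) against distance from the middle of 4 clusters (horizontal axis, kb), as the mean over lines or embryos of ESCs, NPCs, MEFs and XEN cells. Dots are windows that hold a member, and a line stops where windows are missing; the ESC line stays above the NPC and MEF lines across the members of Zfp141 to Zfp819, Zfp640 to Zfp273 and Zfp120 to Zfp345, while all 4 lines are above 0 across Zfp84 to Zfp146.

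The cluster from Zfp120 to Zfp345 on chromosome 2, of 4 genes, lay on a slope. In ESCs its genes rose in order from -0.03 at Zfp120 through 0.66 at Zfp937 and 1.46 at Zfp442 to 1.66 at Zfp345. Its ESC profiles ran from 0.52 to 1.91 with a median of 1.02, its NPC profiles had -2.95, -2.62 and -2.38, its MEF profiles ran from -2.50 to -1.96, and its XEN profiles had -0.84 and -0.82. ESC profiles were above all others, XEN profiles came next, and NPC and MEF profiles overlapped. All 4 windows passed in both comparisons, the largest NPC difference being -3.84 at Zfp937 (SE 0.28, adjusted p = 2.83e-08).

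Zfp981, the only gene of the chromosome 4 array with a window (chr4:146500001-146550000), was early in the ESC lines, with 1.06, 2.51, 1.73, 1.28 and 2.13 in the same order. It was late in NPCs, at -1.71 and -1.41, in the embryos, between -2.29 and -1.54, and in the XEN profiles, at -2.45 and -1.49. The MEF difference was -3.67 (SE 0.27, adjusted p = 3.64e-09). XEN cells here went with NPCs and MEFs, unlike on chromosome 13.

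The long chromosome 17 cluster from Zfp160 to Zfp40, with 16 genes in 14 windows over 2165 kb, was later at both ends than in its middle in ESCs. Zfp160 had -0.96 and Zfp40 had -0.68, while the genes from Zfp54 to Zfp942 had 1.19 to 1.63. The ESC profiles ran from 0.38 to 1.97 with a median of 0.93, the NPC profiles had -2.19, -1.56 and -1.34, the MEF profiles ran from -1.08 to -0.72 with a median of -0.87, and the XEN profiles had 0.86 and 1.00. ESC, NPC and MEF profiles did not overlap, and NPCs were the latest. All 14 windows were later in NPCs than in ESCs, and 12 were later in MEFs. The flanking 500 kb changed less, by -0.94 and -0.73 in NPCs against -2.63 in the cluster.

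The other chromosome 17 cluster, from Zfp871 to Zfp101, held 10 genes in 8 windows and differed between NPCs and MEFs along its length. Its ESC profiles ran from 1.89 to 2.50 with a median of 2.18, its NPC profiles had -0.36, 0.41 and 0.69, its MEF profiles ran from -0.38 to 0.06, and its XEN profiles had 1.50 and 1.84. Zfp811 and Zfp799, in a shared window at the early end, had 1.10 and 1.04 in the NPC lines and -0.64 to -0.24 in the embryos, a MEF minus NPC difference of -1.48 (SE 0.19, adjusted p = 8.1e-06). Zfp81 at the other end had -0.36 and -0.85 in NPCs and 0.32 to 0.88 in the embryos, a difference of 1.25 (SE 0.26, adjusted p = 0.000647). The groups did not overlap at either gene. The Zfp81 difference was 0.62 with centred and 0.67 with quantile normalized columns, below the minimum size, and the Zfp811 difference passed under both.

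Several clusters on chromosome 7 had intermediate values in at least 1 cell type. From Zfp787 to Zfp28, 6 genes had ESC values of 2.15 to 2.25, NPC values of -1.11 to -0.02 and MEF values no lower than the -1.16 of Zfp787. The 8 MEF profiles of the cluster ran from -1.24 to -0.86. All 5 windows there were later in NPCs and in MEFs, and Zfp28 was later still in MEFs than in NPCs, with a difference of -1.11 (SE 0.25, adjusted p = 0.00148). From Zfp551 to Zfp446 the values broke within the cluster. Zfp551 and Zfp606 were late in ESCs (-1.61 and -1.06), NPCs (-3.20 and -3.08), MEFs (-2.42 and -2.15) and XEN cells (-0.86 and -0.61), whereas Zfp329 to Zfp446 had ESC values of 2.67 to 2.77 and NPC values of 0.84 to 1.92. Zfp551 was the latest member in ESCs, and V6.5 ESCs had -3.005 at this gene.

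Zfp954, Zfp773 and Zfp418 were neither early nor late in ESCs and NPCs and late in MEFs alone. Their 2 windows averaged -0.76 to 1.80 in the ESC profiles, with a median of -0.05, -0.49, -0.03 and 0.38 in the NPC profiles, -2.26 to -1.80 in the MEF profiles, and 1.45 and 1.82 in XEN. MEF profiles lay below all others, and the ESC profiles above 1 were those of F121-6, whose mean was 1.06 against -0.60 in Cas129, -0.29 in F123, -0.05 in F121 and 0.00 in F121-9. Zfp954 and Zfp773, which share a window, differed by -2.10 (SE 0.27) between MEFs and ESCs and by -2.14 (SE 0.34) between MEFs and NPCs.

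From Zfp180 to Zfp575, 12 genes in 8 windows, the NPCs alone were later. The ESC profiles ran from 1.58 to 2.53 with a median of 2.00, the NPC profiles had -0.26, 0.47 and 0.56, the MEF profiles ran from 1.61 to 1.97, and the XEN profiles had 1.88 and 2.32. MEF and XEN profiles overlapped ESC profiles, and NPC profiles lay below all of them. In this array 6 windows passed in NPCs against ESCs and 0 in MEFs against ESCs. Timing was later at the Zfp180 end than at the Zfp575 end in each of these cell types, in NPCs -1.65 at Zfp180 and 2.25 at Zfp575. Zfp180 was 1.92 earlier in MEFs than in NPCs (SE 0.27, adjusted p = 1.84e-05).

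In MEFs against NPCs, 24 of 108 member windows passed, against 33.3% of all windows, with 16 earlier (25.7% of all windows) and 8 later (7.64%) in MEFs. This split depends on the offset between the column sets. With columns centred it was 6 earlier and 17 later, with quantile normalization 7 earlier and 12 later, and all windows went from 11285 earlier and 3358 later to 5832 and 9236 with centring.

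Clusters with 1 window on chromosomes 8 and 10 were early and fell in both. Zfp961, whose protein recognises a retroviral primer binding site, had 2.60 to 3.06 in the ESC lines, 1.18 and 1.01 in NPCs, 1.20 to 1.80 in the embryos and 3.48 and 3.53 in XEN. It differed from ESCs by -1.73 in NPCs (SE 0.21, adjusted p = 3.88e-06) and -1.30 in MEFs (SE 0.17, adjusted p = 2.95e-06), and XEN profiles were above all others, at percentile 99.1. Zfp873 had 2.37 to 3.07 in the ESC lines, 0.88 and 0.83 in NPCs and 0.64 to 1.41 in the embryos, with differences of -1.85 (SE 0.23) and -1.60 (SE 0.18). V6.5 ESCs, which were outside the test, had 2.13 at Zfp961 and 1.19 at Zfp873. Both values lay below those of the tested ESC lines, and the Zfp873 value lay within the range of the embryos.

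Another group, 8 clusters, was early in all 4 cell types, with means of at least 1.28 in each. These were Zfp786 to Zfp467 on chromosome 6, Zfp628 to Zfp580, Zfp60 to Zfp850, Zfp84 to Zfp146 and Zfp553 to Zfp646 on chromosome 7, Zfp930 to Zfp866 on chromosome 8, and Zfp560 to Zfp846 and Zfp653 to Zfp810 on chromosome 9. The array from Zfp84 to Zfp146, of 15 genes in 8 windows, had cluster means of 2.63 in ESCs, 2.56 in NPCs, 2.71 in MEFs and 2.70 in XEN cells, and 0 of its windows passed in any timing comparison. It holds Zfp568, a repressor of a placental Igf2 promoter, with 2.61 and 2.85 in the NPC lines and 2.61 to 3.21 in the embryos. Zfp809, which recognises the primer binding site of murine leukaemia proviruses, lies in the Zfp653 to Zfp810 cluster and had 2.38 and 2.62 in NPCs and 3.18 to 3.48 in the embryos. That cluster was the only 1 of the 14 without ESC and MEF overlap in which MEFs were earlier, and 0 of its 4 windows reached a difference that passed.

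Line F121-6 was lower than the other ESC lines in 5 of these 8 clusters. Its ESC mean was 1.38 from Zfp84 to Zfp146 against 2.91 to 3.01 in the other 4 lines, 1.83 from Zfp60 to Zfp850 against 2.96 to 2.98, 1.79 from Zfp553 to Zfp646 against 2.98 to 3.12, 1.70 from Zfp653 to Zfp810 against 2.75 to 3.04 and 2.32 from Zfp628 to Zfp580 against 2.91 to 3.11. In the other 3 it lay within the range of the other lines, at 2.23, 2.74 and 2.17 from Zfp786 to Zfp467, from Zfp930 to Zfp866 and from Zfp560 to Zfp846. Over the 10% of all windows that were earliest in MEFs, a choice that uses no ESC profile, F121-6 averaged 1.91 against 2.48 to 2.53 in the other lines. Over all 108 member windows its mean was 2.00, against 2.01 to 2.13 in the other lines. Leaving F121-6 out gave 66 member windows in NPCs against ESCs and 56 in MEFs against ESCs.

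Rises were few. Zfp646 and Zfp668, in a shared window, were earlier in MEFs than in ESCs by 1.03 (SE 0.35, adjusted p = 0.0151), with 3.27, 1.07, 3.17, 2.62 and 3.14 in the ESC lines and 3.30, 3.85, 4.03 and 3.58 in embryos 1 to 4. The embryos lay above every ESC line, F121-6 was the lowest, and the difference was 0.64 without F121-6, below the minimum size, and 1.06 without embryos 1 and 3 (adjusted p = 0.0555). It was 0.39 with centred columns (adjusted p = 0.325) and 0.55 with quantile normalization (adjusted p = 0.192). Zfp467, which favours fat over bone differentiation in marrow stroma, was earlier in NPCs by 1.01 (SE 0.25, adjusted p = 0.00291), with -0.28 to 0.78 in the ESC lines and 0.98 and 1.42 in NPCs, and by 0.79 without Cas129 NPCs (adjusted p = 0.0628), which did not pass.

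Allelic differences were smaller than the timing changes and correlated less between repeat profiles. At the 108 member windows, repeat profiles of 1 group correlated at 0.750 to 0.997 for timing and at 0.135 to 0.748 for the allelic difference. In ESCs 12 member windows passed (limma, adjusted p below 0.05 and a size of at least 0.5), against 25.2% of all windows, with 129 earlier in 11 (13.2% of all windows) and Cas in 1 (11.9%). In NPCs 19 passed, against 4.71% of all windows, 12 with 129 earlier (2.47%) and 7 with Cas earlier (2.24%). In MEFs 16 passed, against 12.9%, 12 with 129 earlier (5.5%) and 4 with Cas earlier (7.36%). The ESC share of members was below that of all windows and the NPC share above it. All windows include many without genes. By genes, 129 was earlier in ESCs at 11.3% of members and Cas at 0.709%, against 9.30% and 8.07% of all protein-coding genes. In NPCs these shares were 12.8% and 4.96%, against 2.19% and 1.37%. Of the 19 NPC calls, 6 were in Zfp180 to Zfp575, 4 in Zfp786 to Zfp467 and 4 in Zfp871 to Zfp101, and windows of a cluster are not separate observations. The NPC count rests on 2 lines and was 8 without Cas129 and 6 without F121-9. Without embryos 1 and 3 it was 10, and the MEF count was 6. Since all embryos are of 1 cross, strain and parent of origin cannot be told apart in MEFs.

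**Figure D4:**
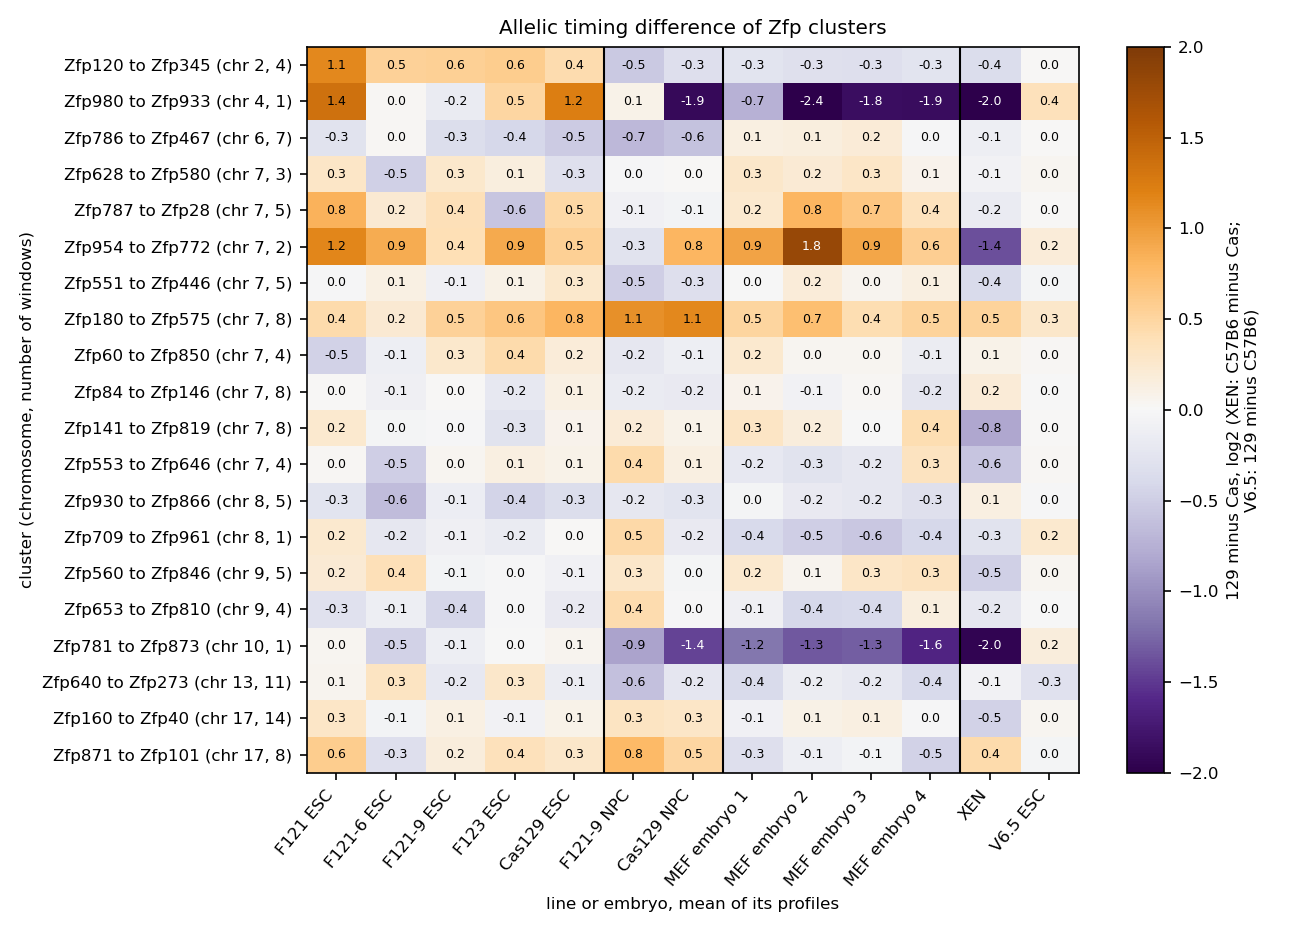
Allelic timing difference of each cluster (rows) in each line or embryo (columns), 129 minus Cas on a log2 scale, with C57B6 minus Cas in XEN and 129 minus C57B6 in V6.5. Orange means that the first-named allele was earlier; Zfp180 to Zfp575 is above 0 in all 13 columns, and Zfp873 (the cluster from Zfp781 to Zfp873) is below -0.8 in NPC, MEF and XEN columns and between -0.46 and 0.05 in the 5 ESC lines of 129 and Cas.

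The cluster from Zfp180 to Zfp575 held 6 of the 12 ESC calls, and in it the 129 allele was earlier in ESCs, NPCs and MEFs. Its allelic difference ran from -0.22 to 0.94 in the 13 ESC profiles with a median of 0.55, was 1.09, 1.14 and 1.15 in the NPC profiles, and ran from 0.38 to 0.72 in the MEF profiles. It was above 0 in 12 of 13 ESC profiles and in all NPC and MEF profiles, and NPC profiles lay above all others. XEN cells had 0.44 and 0.62 for C57B6 minus Cas, and V6.5 had 0.28 for 129 minus C57B6. Of the 8 windows, 6 passed in ESCs, 6 in NPCs and 5 in MEFs.

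Zfp112 and Zfp235, in a shared window, had 0.44, 0.97, 0.58, 0.64 and 0.68 in the ESC lines, 1.25 and 1.22 in NPCs, and 0.66, 0.89, 0.73 and 0.77 in embryos 1 to 4. All 11 lines and embryos had 129 earlier, in ESC lines of both cross directions, and the tests gave 0.66 in ESCs (SE 0.09, adjusted p = 5.25e-05), 1.24 in NPCs (SE 0.14, adjusted p = 0.000961) and 0.76 in MEFs (SE 0.10, adjusted p = 0.000188). Without embryos 1 and 3 the MEF value was 0.83 (adjusted p = 0.0163). Zfp108, Zfp93 and Zfp61, also in 1 window, had 0.22 to 0.99 in the ESC lines and 1.29 and 1.47 in NPCs, and this difference was 0.79 larger in NPCs than in ESCs (SE 0.21, adjusted p = 0.0213). It was 0.70 without Cas129 NPCs (adjusted p = 0.15) and 0.88 without F121-9 NPCs (adjusted p = 0.0788), neither of which passed. At Zfp428 and Zfp575, at the early end, F121-6 had -0.60 and -0.33 while the other ESC lines had 0.26 to 0.77, and these windows did not pass.

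**Figure D5:**
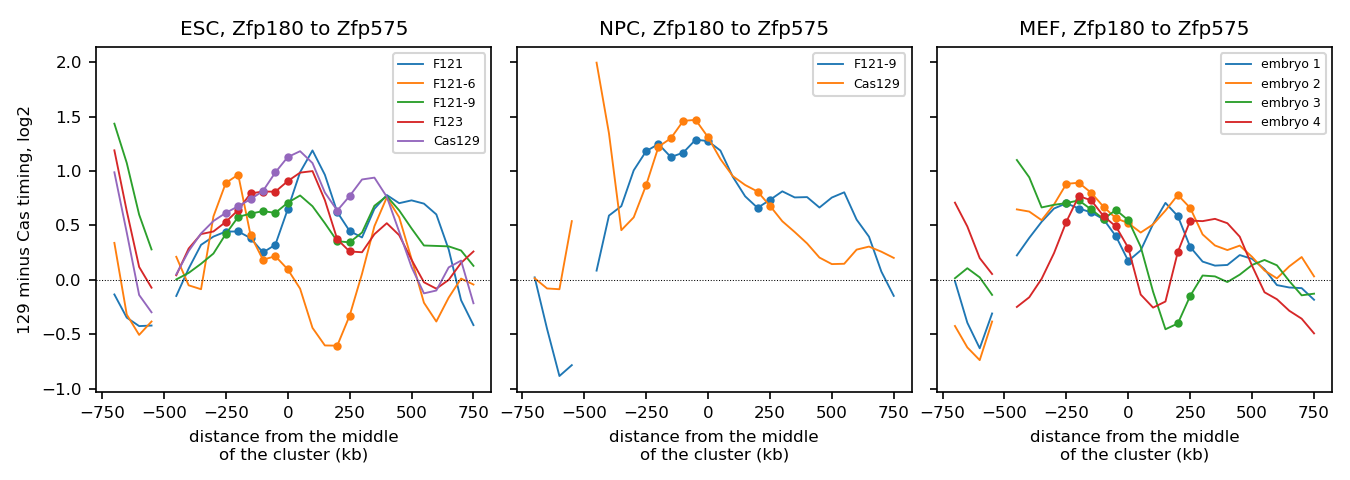
Allelic difference (vertical axis, 129 minus Cas, log2) against distance from the middle of the Zfp180 to Zfp575 cluster (horizontal axis, kb), with a line for each ESC line, NPC line and embryo. Dots are windows that hold a member; those of both NPC lines lie between 0.66 and 1.47, and the dots of F121-6 ESCs and embryo 3 fall below 0 at the right end.

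At the chromosome 2 cluster the mean allelic difference was 0.65 in ESCs, -0.43 in NPCs and -0.28 in MEFs. It was above 0 in 12 of 13 ESC profiles, 0 of 3 NPC profiles and 0 of 8 MEF profiles. Of its 4 windows, 2 passed in ESCs with 129 earlier, 1 in NPCs with Cas earlier and 0 in MEFs. Zfp120 had 1.60, 1.33, 0.83, 1.29 and 0.68 in the ESC lines, -0.02 and -0.27 in NPCs, and -0.22, -0.01, -0.13 and -0.23 in embryos 1 to 4. The ESC lines did not overlap the others, and the ESC mean was 1.15 (SE 0.12, adjusted p = 6.67e-06). The allelic difference itself changed from ESCs by -1.29 in NPCs (SE 0.23, adjusted p = 0.00236) and by -1.29 in MEFs (SE 0.18, adjusted p = 0.000166), and the MEF value was -1.27 without embryos 1 and 3 (adjusted p = 0.00705). Zfp937 had 0.84 in ESCs (SE 0.14) and -0.36 in MEFs (SE 0.16), which did not pass. Zfp442 had Cas earlier in NPCs, with -0.72 and -1.03, a mean of -0.88 (SE 0.20, adjusted p = 0.0252) that did not pass without embryos 1 and 3 (adjusted p = 0.0698), without Cas129 NPCs (0.252) or without F121-9 NPCs (0.1).

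Over all clusters the change of the allelic difference passed at 12 member windows in MEFs against ESCs, against 27.4% of all windows, and at 16 in NPCs against ESCs, against 16.1%. In MEFs 5 were higher (12.3% of all windows) and 7 lower (15.1%), and in NPCs 7 were higher (8.04%) and 9 lower (8.03%). Both counts fell without embryos 1 and 3, to 4 and 9. The NPC count was 0 when only F121-9 and Cas129 were compared as pairs, and 6 and 4 without Cas129 and without F121-9 NPCs.

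Zfp873 and Zfp981 had the Cas allele earlier in MEFs. Zfp873 had -1.17, -1.33, -1.30 and -1.63 in embryos 1 to 4, -0.85 and -1.44 in NPCs, -0.46 to 0.05 in the ESC lines, -2.02 and -1.88 for C57B6 minus Cas in XEN, and 0.17 for 129 minus C57B6 in V6.5. Embryos and NPC lines lay below every ESC line, with means of -1.36 in MEFs (SE 0.12, adjusted p = 1.62e-05) and -1.15 in NPCs (SE 0.18, adjusted p = 0.00444). Without embryos 1 and 3 the MEF mean was -1.48 (adjusted p = 0.00362), and without Cas129 the NPC value was -0.85 (adjusted p = 0.0996), which did not pass. The MEF minus ESC difference was -1.26 (SE 0.17, adjusted p = 9.42e-05). Zfp981 had -0.74, -2.36, -1.85 and -1.86 in the embryos, a mean of -1.70 (SE 0.33, adjusted p = 0.00243), but its ESC lines were spread from -0.17 to 1.35, its NPC lines had 0.09 and -1.90, and its XEN profiles had -4.25 and 0.16.

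On chromosome 6 the allelic difference of Zfp746 was below 0 in ESCs and NPCs and above 0 in MEFs, although 0 windows of its cluster passed in MEFs. Zfp746, which encodes the parkin-interacting repressor PARIS, had -0.83, 0.04, -0.64, -0.81 and -0.80 in the ESC lines, -1.37 and -0.85 in NPCs, and 0.31, 0.19, 0.38 and 0.22 in the embryos. Cas was earlier in every ESC and NPC line but F121-6, and 129 in every embryo. The ESC mean was -0.61 (SE 0.13, adjusted p = 0.00165) and the NPC mean -1.11 (SE 0.20, adjusted p = 0.00963), which was -0.85 without F121-9 NPCs (adjusted p = 0.168). MEFs exceeded ESCs by 0.88 (SE 0.19, adjusted p = 0.0033), and by 0.82 without embryos 1 and 3 (adjusted p = 0.0574). Its neighbour Zfp777 had -0.99 and -0.82 in NPCs and 0.17 to 0.29 in the embryos.

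Zfp954 and Zfp773 had 129 earlier than Cas in ESCs and MEFs. In the XEN line, which has no 129 allele, Cas was earlier than C57B6. Their shared window had 1.23, 0.96, 0.45, 0.93 and 0.60 in the ESC lines, -0.24 and 0.68 in NPCs, and 1.05, 1.94, 1.05 and 0.66 in the embryos, with means of 0.83 in ESCs (SE 0.18, adjusted p = 0.00172) and 1.18 in MEFs (SE 0.20, adjusted p = 0.00096). The NPC lines disagreed in sign, and the XEN mean for C57B6 minus Cas was -1.39. Without embryos 1 and 3 the MEF mean was 1.30 (adjusted p = 0.036).

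In the Zfp871 to Zfp101 cluster 129 was earlier in NPCs. The 3 NPC profiles had 0.41, 0.59 and 0.78, 9 of 13 ESC profiles were above 0 with a median of 0.20, and the MEF profiles ran from -0.57 to 0.06. All 3 NPC profiles lay above all MEF profiles, and 2 of them above the highest ESC profile, at 0.585. Zfp563 had 1.53 and 0.60 in the NPC lines, a mean of 1.06 (SE 0.20, adjusted p = 0.0117) that was 0.60 without F121-9 (adjusted p = 0.255). Zfp870 had 1.00 and 0.89, a mean of 0.95 (SE 0.25, adjusted p = 0.046). That call was lost without embryos 1 and 3 (adjusted p = 0.103), with quantile normalization (0.071), without Cas129 NPCs (0.207) and without F121-9 NPCs (0.29).

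At the far end of Zfp141 to Zfp819, where MEFs were near 0 in timing, the 129 allele was earlier in MEFs. Zfp658 and Zfp719 had 0.89, 0.68, 0.80 and 0.65 in embryos 1 to 4, 0.00 to 0.28 in the ESC lines, and 0.03 and 0.70 in NPCs. All embryos were above all ESC lines, with a MEF mean of 0.75 (SE 0.11, adjusted p = 0.000443) and a MEF minus ESC difference of 0.62 (SE 0.15, adjusted p = 0.00671), neither of which passed without embryos 1 and 3 (adjusted p = 0.0576 and 0.107). Zfp976 and Zfp977, which moved most in timing, had 0 allelic calls: Zfp976 ran from -0.67 to 0.46 in ESC lines and from -1.50 to 0.65 in the embryos.

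Zfp160 had -0.92, -0.55, -0.61 and -1.07 in the embryos and -0.56 to 0.40 in the ESC lines, a MEF mean of -0.79 (SE 0.15, adjusted p = 0.00231) and -0.81 without embryos 1 and 3 (adjusted p = 0.0741). The chromosome 13 cluster had 1 allelic call in NPCs, Zfp455 with -0.94 and -0.61, and 0 in ESCs and MEFs. The Zfp455 call in NPCs was lost without embryos 1 and 3 (adjusted p = 0.0569), without Cas129 NPCs (0.0718) and without F121-9 NPCs (0.246). In the test of NPCs against ESCs, the allelic difference was lower at 3 of the 11 windows of this cluster, against 8.03% of all windows, and higher at 0. The early arrays from Zfp84 to Zfp146, Zfp60 to Zfp850, Zfp553 to Zfp646 and Zfp653 to Zfp810 had 0 calls in any of the 3 cell types, and the first ran from -0.45 to 0.33 over the ESC profiles and from -0.37 to 0.27 over the MEF profiles.

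In V6.5 ESCs, whose parents are the strains C57B6 and 129, cluster values of the allelic difference lay between -0.29 and 0.37, with a median size of 0.0373. Both X tracks of V6.5 were patterned although the line is labelled male (SD 2.27 for each allele). How well its alleles were separated was not tested. In XEN cells, C57B6 minus Cas ran from -2.04 at Zfp981 to 0.53 at Zfp180 to Zfp575, with a median size of 0.371. These are 1 line each, and were not compared with the others by a test.

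Growth in 2i against feeders was compared within lines F121-6 and F121-9, with 2 profiles of each in each medium. Timing was later in 2i at 4 member windows and earlier at 0, against 12.8% of all windows called, 4.92% later and 7.86% earlier. These held Zfp40 (-0.92, SE 0.24), Zfp101 (-0.91, SE 0.24), Zfp81 (-0.87, SE 0.23) and Zfp606 (-0.80, SE 0.24), and the count was 0 without any 1 of 4 of the 8 profiles. For the allelic difference, limma called 0 member windows and 0.0% of all windows. An unadjusted p below 0.05 was found at 7 of the 108 member windows and at 5104 of all 43941 windows. The repeat profiles of a line may be technical, so these p-values measure the spread between profiles only.

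Of 28 listed genes through which KRAB zinc finger proteins silence chromatin, 25 had an autosomal window. Their median timing was 2.61 in ESCs, 2.67 in NPCs, 2.40 in MEFs and 2.52 in XEN cells. In MEFs against ESCs 2 rose and 5 fell, against 20.5% and 13.6% of all autosomal protein-coding genes with a window. In NPCs 1 rose and 4 fell, against 7.77% and 16.0% of all. Smarcad1, a chromatin remodeller, fell by 4.93 in MEFs (SE 0.23) and by 4.26 in NPCs (SE 0.29), and Atf7ip, the partner of SETDB1, fell by 1.71 (SE 0.15) and by 2.01 (SE 0.19). Trim28 itself fell by 1.03 in MEFs (SE 0.28, adjusted p = 0.00332) and had an NPC mean of 1.74 against 2.62 in ESCs, which did not pass. Pphln1, a subunit of the HUSH silencing complex, rose by 1.43 in MEFs (SE 0.20) and by 1.75 in NPCs (SE 0.25).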

How the data were processed

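The authors deposited 1 table of log ratios of early to late S phase signal per allele in 50 kb windows of mm10, read here as log2 because the labels name no base. Bowtie2, SAMtools and bedtools are named, with no version, in the submitters' processing notes; allele assignment, smoothing and scaling are not given in the sources used here. Timing was the mean of both alleles and the allelic difference their difference. Profiles were averaged per line or embryo and cell type and fitted together with limma 3.58.1 in R 4.3.3 (lmFit, eBayes, two-sided), with Benjamini-Hochberg adjustment over 43941 autosomal windows. Media were compared over 8 profiles with the line as a term. Calls needed an adjusted p below 0.05 and a size of 1 for cell type timing or 0.5 otherwise. The fits were tested on simulated data. Labels do not say whether repeat profiles are separate cultures.

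Named genes are the first and last of each cluster, up to 5 called genes of largest difference per test and direction (at most 2 a cluster), the 3 earliest and latest per cell type, and called genes of the known-role and KRAB silencing lists; other named genes were chosen after their values were seen. Members and lists were chosen with earlier results of these data known. Same-numbered profiles of 55 pairs of groups had a median correlation of deviations of -0.007, so replicate numbers were not taken as pairs. Gene positions and promoters are from RefSeq GRCm38.p6. Alternatives changed the scaling, lines, embryos, block, size threshold, gene position and membership distance.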

Additional observations from a re-analysis of the deposited data

Results flagged for a closer look

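Over the 80 cluster values compared across lines or embryos, 11 had a sample whose gap to its neighbour was large for the group's range, a test that chance passes in about 1 in 20 groups. In ESC timing, F121-6 was low at 2.32 from Zfp628 to Zfp580, 1.83 from Zfp60 to Zfp850, 1.38 from Zfp84 to Zfp146, 1.79 from Zfp553 to Zfp646 and 1.70 from Zfp653 to Zfp810, and F121 was low at 1.54 from Zfp560 to Zfp846 against 2.09 to 2.19 in the other lines. In MEF timing, embryo 4 was low at 1.58 from Zfp930 to Zfp866 against 1.72 to 1.75, and embryo 1 was high at 3.58 from Zfp653 to Zfp810 against 3.28 to 3.32. In the allelic difference, F121 ESCs had 1.15 from Zfp120 to Zfp345 against 0.42 to 0.58. From Zfp553 to Zfp646, F121-6 ESCs had -0.50 against 0.03 to 0.13, and embryo 4 had 0.33 against -0.27 to -0.20.

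The allelic difference differed between cell types, by a test of that difference, at the genes named by the largest-difference rule. Between MEFs and ESCs it was larger by 0.88 at Zfp746, 0.70 at Zfp777, 0.66 at Zfp819 and 0.62 at Zfp658, and the difference was -2.29 at Zfp981, -1.29 at Zfp120, -1.26 at Zfp873, -1.20 at Zfp937 and -0.82 at Zfp160. Between NPCs and ESCs it was larger by 0.90 at Zfp563, 0.79 at Zfp108 and Zfp61, 0.77 at Zfp820 and 0.62 at Zfp229, and the difference was -1.29 at Zfp120, -1.20 at Zfp345, -1.05 at Zfp873, -0.90 at Zfp455 and -0.67 at Zfp936.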

How the results depend on the processing

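Counts of member windows, with the value as reported first, moved by over 1.5 times under these alternatives. With no minimum size, ESC allelic calls went from 12 to 22, MEF minus ESC timing from 57 to 88 and MEF minus NPC timing from 24 to 45. With 2 times the minimum size, ESC allelic calls were 1, NPC allelic 9 of 19, MEF allelic 3 of 16, MEF minus ESC allelic 4 of 12, NPC minus ESC allelic 4 of 16, MEF minus NPC timing 2 and 2i minus feeder timing 0 of 4. With lines and embryos labelled female only, MEF allelic calls were 8 and MEF minus ESC allelic calls 3; without embryos 1 and 3 they were 6 and 4, and NPC and NPC minus ESC allelic calls were 10 and 9. Membership within 250 kb gave 10, 5 and 0 for MEF allelic, MEF minus ESC allelic and 2i timing calls, and placing genes by their start gave 2 for 2i timing. Leaving out 1 NPC line gave 6 to 8 NPC allelic and 4 to 6 NPC minus ESC allelic calls, and leaving out 1 profile gave as few as 0 for 2i timing. With the line as a random block, NPC allelic calls were 12 and NPC minus ESC allelic calls 10; paired by line, the latter were 0. The replicate numbers do not pair the profiles; with the replicate block these 2 counts were 8 and 10. NPC minus ESC timing moved under none of the alternatives run, and no named gene's value changed sign where it was called. The MEF minus NPC split turned with the scaling, from 16 earlier and 8 later to 6 and 17 with centring and 7 and 12 with quantile normalization. Named genes kept direction and call in 1332 comparisons with an alternative and lost the call in 196. The unknown depth limits what a missing call can show. The cause of these moves was not tested.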
